A study of Homo sapiens with 44 samples.

Results

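The response of colon fibroblasts to the cytokine IL-22 was described from 8 ATAC-seq libraries, 4 from IL-22-treated and 4 from unstimulated cultures, out of 44 libraries in the series. All 8 came from Ccd18-Co, a fibroblast line of human colon that stands for a single donor. ATAC-seq cuts open chromatin with a transposase, and the coverage of a site therefore measures how accessible its DNA was. The series compared 11 groups of 4 libraries, unstimulated cells and cells given 1 of 10 cytokines, to ask which signals change fibroblast chromatin.

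The IL-22 cultures received the cytokine at 10 ng/ml for 24 h in medium without serum. The unstimulated cultures received no cytokine (0 ng/ml) and were harvested at the same time point. Both groups shared the line, the plate format and the library protocol. The labels number the replicates from 1 to 4 in each group but do not say whether they were separate cultures. The p-values therefore measure the spread between libraries of a group, which may be technical. In the peak tests by limma this spread was pooled over the groups of all 44 libraries.

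IL-22 is a cytokine of the IL-10 family, made by lymphoid cells and known in the gut for its action on epithelium, where it supports barrier repair and antimicrobial defence. It binds a receptor of IL22RA1 and IL10RB, which signals through the kinases JAK1 and TYK2 to the transcription factor STAT3. STAT3 in turn drives feedback inhibitors such as SOCS3. IL22RA2 is a secreted protein that binds IL-22 and blocks it. Oncostatin M (OSM) and IL-6 reach STAT3 through other receptors that share the subunit gp130.

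Few peaks passed the test between IL-22-treated and unstimulated fibroblasts. Of 407176 peaks tested, 149 were called at an adjusted p under 0.05 (0.0366%), 140 of them more accessible with IL-22 (0.0344%) and 9 less accessible (0.00221%). The raised peaks were mostly GC-rich gene starts, JAK1, SOCS1 and CEBPD among them. After a correction for GC content 7 peaks were called, all raised and none of the promoter class, and the peaks at JAK1, SOCS1 and CEBPD were not among them. The lowered peaks lay away from gene starts, and the one with the smallest adjusted p was a site near PTGS2. The receptor genes, the STAT3 gene, the SOCS3 locus and the epithelial target genes of IL-22 had no called peak at their start sites. At an unadjusted p under 0.05 there were 29096 peaks (7.15%).

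The sequences of 4 raised and 3 lowered peaks show the range of base composition among the called peaks, on which the following results turn. Single windows do not separate the directions. Each is the central 240 bases of a peak, read from hg38 on the plus strand, and none overlaps an annotated exon. In the raised peaks the capitals mark CpG dinucleotides. In the lowered peaks they mark the AP-1 motif TGANTCA and the STAT palindrome TTCCNGGAA, searched on both strands.
Raised, intergenic near TFCP2L1, chr2:121297551-121297790: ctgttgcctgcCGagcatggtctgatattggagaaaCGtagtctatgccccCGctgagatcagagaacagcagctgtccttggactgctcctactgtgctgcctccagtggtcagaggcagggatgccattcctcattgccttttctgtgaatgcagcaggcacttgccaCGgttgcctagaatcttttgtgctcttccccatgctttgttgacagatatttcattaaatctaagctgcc
Raised, intron of DYM near MIR4744, chr18:49249627-49249866: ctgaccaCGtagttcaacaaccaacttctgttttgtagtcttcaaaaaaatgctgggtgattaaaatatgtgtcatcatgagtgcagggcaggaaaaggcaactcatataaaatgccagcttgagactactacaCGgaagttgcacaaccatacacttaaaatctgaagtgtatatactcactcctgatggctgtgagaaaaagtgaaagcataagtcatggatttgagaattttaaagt
Raised, intergenic near HAAO, chr2:42809802-42810041: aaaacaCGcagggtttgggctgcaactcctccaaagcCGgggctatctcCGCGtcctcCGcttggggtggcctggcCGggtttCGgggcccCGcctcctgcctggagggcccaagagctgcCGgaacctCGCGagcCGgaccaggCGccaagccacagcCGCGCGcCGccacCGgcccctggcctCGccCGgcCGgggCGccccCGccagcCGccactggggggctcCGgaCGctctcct
Raised, upstream of SKIL, chr3:170356713-170356952: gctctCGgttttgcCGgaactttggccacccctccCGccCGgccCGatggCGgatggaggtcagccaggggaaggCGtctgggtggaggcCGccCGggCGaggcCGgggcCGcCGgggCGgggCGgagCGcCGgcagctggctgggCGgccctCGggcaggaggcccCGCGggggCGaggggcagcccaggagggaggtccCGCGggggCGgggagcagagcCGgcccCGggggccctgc
Lowered, intergenic near PTGS2, chr1:186671203-186671442: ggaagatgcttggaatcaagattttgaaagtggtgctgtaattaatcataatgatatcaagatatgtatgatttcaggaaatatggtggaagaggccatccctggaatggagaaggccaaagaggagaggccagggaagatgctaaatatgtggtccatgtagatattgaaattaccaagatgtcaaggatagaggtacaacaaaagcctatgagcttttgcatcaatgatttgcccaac
Lowered, intergenic near CD2AP, chr6:47420405-47420644: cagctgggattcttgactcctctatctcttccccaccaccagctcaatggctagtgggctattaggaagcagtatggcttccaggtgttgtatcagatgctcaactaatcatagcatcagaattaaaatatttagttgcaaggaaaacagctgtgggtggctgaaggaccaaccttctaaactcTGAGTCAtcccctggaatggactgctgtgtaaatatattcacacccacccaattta
Lowered, intergenic near MIR3193 and ID1, chr20:31610628-31610867: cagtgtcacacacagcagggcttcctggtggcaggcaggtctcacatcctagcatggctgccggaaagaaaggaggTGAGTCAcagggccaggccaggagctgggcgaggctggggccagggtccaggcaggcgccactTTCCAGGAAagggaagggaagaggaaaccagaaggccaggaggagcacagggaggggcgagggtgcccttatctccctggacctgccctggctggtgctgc

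The 240-base stretch upstream of SKIL held 27 CpG dinucleotides and 81.2% GC, and that near HAAO 26 CpG and 75.4% GC. The stretches near TFCP2L1 and in the DYM intron held 4 and 2 CpG and had 50.8% and 37.9% GC, and the 3 lowered ones had 39.6, 44.6 and 64.6% GC. The raised peaks as a group resembled the first pair. Their median GC content was 76.0%, against 45.0% over all tested peaks, and they held a median of 64 CpG per 500 bases, against 5. A GC content of at least 70% was found in 117 of the 140 (83.6%, 95% Wilson interval 76.6 to 88.8%) and in 2.40% of all tested peaks.

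Fibroblast identity was read from the same table. All 12 fibroblast marker genes, among them COL1A1, PDGFRA and VIM, had a tested peak within 1 kb of an annotated start site (a start-site peak). Coverage is given throughout per megabase of a library's summed coverage (per Mb), after scaling by a composition factor, and the summed level of these 12 peaks was 167.00 to 183.00 per Mb in the IL-22 libraries and 154.00 to 168.00 in the unstimulated ones. Of 11 epithelial markers 6 had a start-site peak, 4 of them with a mean under 1 per Mb, and CDH1, KRT20, CDX2, VIL1 and MUC2 had none. Their summed level was 6.25 to 7.60 per Mb with IL-22 and 3.63 to 7.86 without. All 6 endothelial markers had a peak, with sums of 4.04 to 5.27 and 4.27 to 7.66 per Mb. Of 8 immune markers only CD68 and CD14 had one, with sums of 29.40 to 32.20 and 28.30 to 33.00 per Mb, and PTPRC, which marks leukocytes, had none. No marker peak of the 4 lists was called in either direction. At an unadjusted p under 0.05 the fibroblast gene THY1 (0.38) and the endothelial gene ERG (-0.80, levels of 0.120 and 0.615 per Mb) passed. In bulk samples a change in the number of cells of a type cannot be told apart from a change in the chromatin of each cell.

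The 8 libraries held 305.0 to 567.0 Mb of summed coverage, 421.0 ± 112.0 Mb with IL-22 and 414.0 ± 81.6 Mb without (mean ± SD, n = 4, exact permutation p = 0.914). The share of coverage that fell in peaks of at least 70% GC differed. It was 8.18, 8.08, 7.99 and 8.15% in IL-22 replicates 1 to 4 and 7.01, 6.83, 7.07 and 6.82% in unstimulated replicates 1 to 4. The groups did not overlap, at 8.10 ± 0.0834% against 6.93 ± 0.127% (two-sided exact permutation p = 0.0286, the smallest that 4 against 4 allows, 0.0714 after Benjamini-Hochberg adjustment over 5 library measures). Among the other 9 cytokine groups the mean share ranged from 6.52% (TGF-β1) to 8.12% (OSM), and 8 of the 9 lay above the unstimulated mean. Libraries of a single group also differed in this share, most for IFN-α, from 6.57 to 8.15%. The share of coverage in promoter peaks moved in the same direction, 21.3 ± 0.408% against 20.3 ± 0.225% (exact permutation p = 0.0286, adjusted 0.0714). The labels give no batch or date, so a batch that went with the groups cannot be told apart from IL-22.

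**Figure D1:**
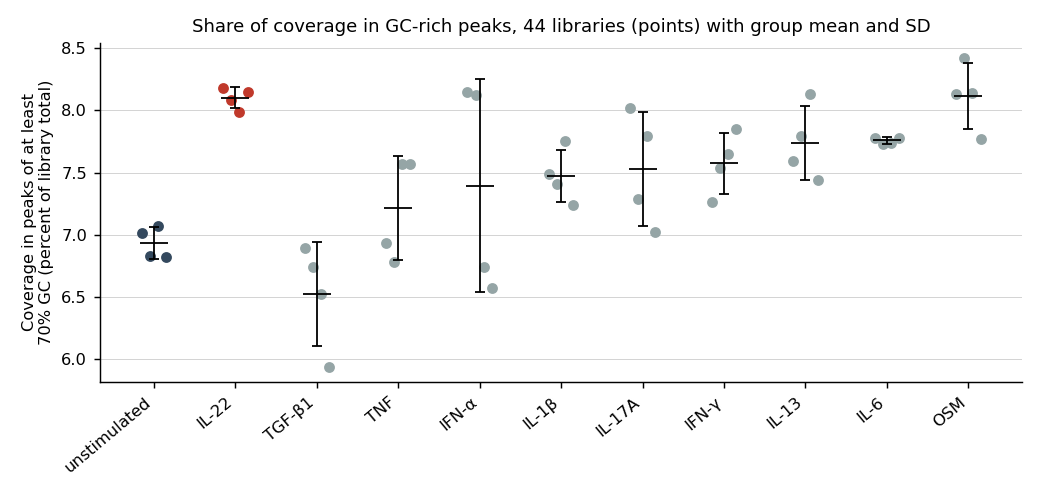
Share of each library's coverage in peaks of at least 70% GC (vertical axis, percent) for the 11 groups of the series. Points are libraries and the black bars are group means with SD. The 4 IL-22 libraries sit between 7.99 and 8.18%, all above the 4 unstimulated libraries (6.82 to 7.07%).

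The change with IL-22 rose with the GC content of the peak above about 65% GC. The median change (IL-22 minus unstimulated, log2 of coverage per Mb plus 0.5) over all tested peaks was -0.09. It was -0.08 in the 103730 peaks under 40% GC, -0.10 in the 177022 peaks of 40 to 50%, -0.11 in the 85429 of 50 to 60%, -0.07 in the 20325 of 60 to 65% and -0.01 in the 10913 of 65 to 70%, with no rise up to 60%. It was 0.12 in the 6145 peaks of 70 to 75% GC and 0.34 in the 3612 peaks of 75% GC and over. Of the 140 raised peaks, 38 lay in the first of these GC-rich classes and 79 in the second, so that 2.19% of all peaks of 75% GC and over were raised. Among peaks of 75% GC and over, those farther than 1 kb from a start site also had a positive median change, 0.27 over 397 peaks, against 0.35 over 3215 start-site peaks. When a smooth curve of each library's deviation on GC content was subtracted, the class medians lay between -0.01 and 0.02. Flat medians are what this subtraction is built to give. After it 7 peaks were called (0.00172%), all of them raised. All 140 raised peaks, chosen for a rise in the same libraries, still had a positive change after this correction, with a median of 0.58 in place of 0.85.

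**Figure D2:**
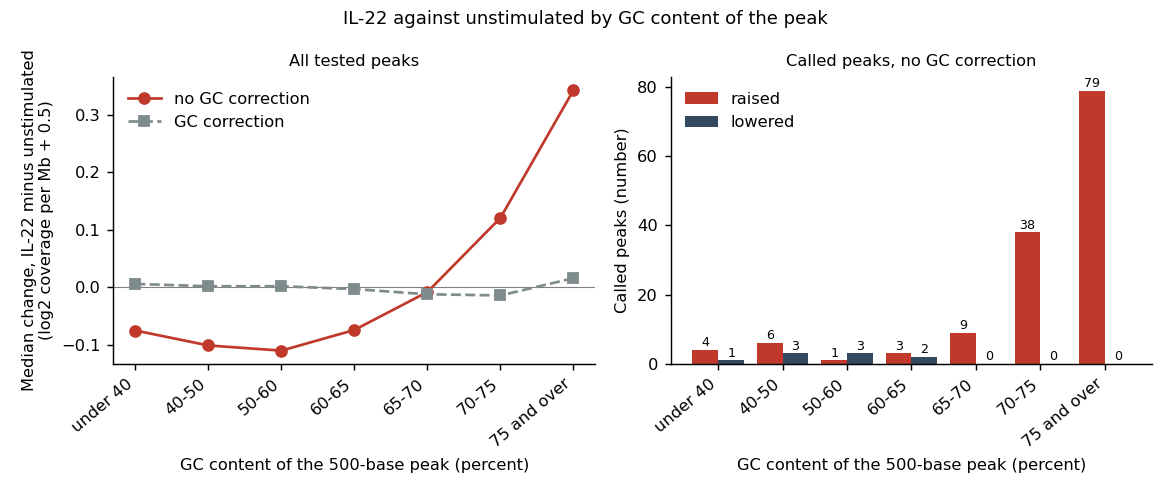
Left, median change with IL-22 (log2 of coverage per Mb plus 0.5) in 7 classes of peak GC content, without (circles) and with (squares) the GC correction. Right, number of raised and lowered peaks in each class without the correction. The median lies between -0.11 and -0.07 up to 65% GC and rises to 0.34 at 75% GC and over, and 117 of the 140 raised peaks lie in the last 2 classes.

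Raised peaks were placed at gene starts. The deposited class was promoter for 80 of the 140 (57.1%, 95% Wilson interval 48.9 to 65.0%), against 7.15% of all tested peaks. A further 21 were exonic, 27 intronic and 12 distal. By the annotation, 125 (89.3%) lay within 1 kb of a start site, against 13.3% of tested peaks. Position and GC content went together. At a GC content of at least 70%, 113 of 117 raised peaks and 8120 of all 9757 tested peaks lay there. At 75% GC and over, 2.4% of start-site peaks and 0.504% of those farther away were raised. Read the other way, 125 of 54295 start-site peaks were raised (0.23%) and none was lowered. The raised peaks were spread over 22 autosomes and chromosome X, with 16 on chromosome 1 and 14 on chromosome 17. Their changes ran from 0.45 to 1.90 on the log2 scale, with a median coverage of 15.1 per Mb with IL-22 and 8.0 without. The 4 IL-22 libraries all lay above the 4 unstimulated ones in 135 of the 140 raised peaks, and all below in 8 of the 9 lowered ones. Over all tested peaks the libraries of the groups were separated in this way in 4.04%. The same libraries chose the called peaks, which favours separation, so these counts are a description. The same holds for each called peak said below to have groups that did not overlap.

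Among proximal signalling genes, JAK1, which encodes the kinase bound to IL22RA1, was the one with a raised start-site peak. The peak (chr1:64966314-64966814, hg38, untranslated part of the first exon) had 19.5, 19.6, 15.6 and 25.8 per Mb with IL-22 and 10.0, 10.6, 9.78 and 10.2 without. The lowest IL-22 library stood above the highest unstimulated one. JAK1 thus had a log2 change of 0.93 with an SE of 0.17, the form in which later changes are given (limma adjusted p = 0.0013), and 0.69 with an adjusted p of 0.196 after the GC correction. Without IL-22 replicate 4 this peak was not called.

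SOCS1, a feedback inhibitor that binds JAK kinases, was raised in an untranslated exon 233 bases from a start site (chr16:11255717-11256217). IL-22 libraries held 22.0, 23.4, 20.4 and 28.3 per Mb and unstimulated libraries 13.8, 15.2, 14.3 and 10.2. The groups did not overlap, and the change was 0.80 ± 0.14 (limma adjusted p = 0.00128), or 0.40 with an adjusted p of 0.599 after the GC correction. CEBPD, a transcription factor induced by STAT3 in many cell types, was raised in its coding exon (chr8:47737868-47738368). Its values were 18.0, 21.7, 18.8 and 16.2 per Mb with IL-22 and 10.8, 9.42, 7.57 and 8.98 without. All IL-22 libraries were higher. The change was 0.99 ± 0.17 (limma adjusted p = 0.000546), or 0.62 with an adjusted p of 0.308 after the GC correction.

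These genes had GC-rich starts, at 75.4% (JAK1), 79.6% (SOCS1) and 78.8% (CEBPD). In the IL-22 receptor and proximal signalling list, 1 of 11 start-site peaks was raised and 4 passed an unadjusted p under 0.05. Over all start-site peaks 0.23% were raised, 2.4% of those of 75% GC and over, and 9.61% passed that p. Besides JAK1 these were STAT5A at 0.78 (95% interval 0.39 to 1.18, adjusted p = 0.124), TYK2, the second kinase of the receptor, at 0.27 (0.07 to 0.48, adjusted p = 0.556) and, in the other direction, the inhibitor gene IL22RA2 at -0.95 (-1.64 to -0.25, adjusted p = 0.526). In the list of STAT3 target and feedback genes, 2 of 24 start-site peaks were raised and 9 passed an unadjusted p under 0.05, with 20 of the 24 higher in IL-22 and a median change of 0.15. The median over all start-site peaks was -0.006. Apart from SOCS1 and CEBPD the members that passed the unadjusted p were SOCS3, the transcription factors CEBPB (0.51, 95% interval 0.22 to 0.79), BCL3 (0.46, 0.08 to 0.85) and HIF1A (0.35, 0.08 to 0.61), the kinase gene PIM1 (0.33, 0.09 to 0.57), the cyclin gene CCND1 (0.38, 0.05 to 0.70) and IL6ST, which encodes gp130 (0.29, 0.08 to 0.51). Their adjusted p ran from 0.244 for CEBPB to 0.628 for CCND1. The BCL3 and PIM1 starts, at 81.4 and 78.0% GC, had changes of 0.00 and -0.01 after the GC correction. After the GC correction the medians of the receptor and STAT3 lists were -0.005 and 0.13, and no start-site peak of either was called. The STAT3 list was not alone in leaning upward. Before the correction 12 of 14 contractile and matrix genes were higher (median 0.17). So were 10 of 12 interferon-stimulated genes (0.12) and 11 of 12 fibroblast markers (0.11). Of inflammatory fibroblast genes 11 of 19 were higher and of epithelial targets 5 of 12. Corrected medians of the contractile, interferon and fibroblast marker lists were 0.204, 0.225 and 0.197, and that of all start-site peaks 0.035.

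The receptor itself was not called. IL22RA1 had a low start-site peak (chr1:24142838-24143338), with 2.88, 2.86, 2.17 and 4.00 per Mb in IL-22 libraries and 3.63, 3.16, 3.49 and 3.47 in unstimulated ones. The groups overlapped and the change was -0.20 (95% interval -0.75 to 0.34, limma adjusted p = 0.923). IL10RB, whose start is shared with the divergent transcript IL10RB-DT, had 4.43 ± 0.794 per Mb with IL-22 and 5.94 ± 1.59 without, a change of -0.37 (-0.81 to 0.08, adjusted p = 0.769). IL22RA2, the soluble inhibitor, was close to 0, with 0.130 per Mb in IL-22 replicate 2 and 0 in the other three, against 0.358, 0.394, 1.11 and 0.378 (change -0.95, adjusted p = 0.526). STAT3 had an open start in every library, 62.9 ± 4.37 per Mb with IL-22 and 59.4 ± 3.81 without, and its change of 0.08 had a 95% interval of -0.07 to 0.23 (adjusted p = 0.878).

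The SOCS3 locus, a standard readout of STAT3 signalling, was covered by 48 tested peaks under its deposited name. None was called between IL-22 and unstimulated cells by limma, the smallest adjusted p being 0.304. An unadjusted p under 0.05 was passed by 7, against 7.15% of all tested peaks. The changes ran from -1.29 to 0.76 with a median of -0.09, 18 up and 30 down. The start-site peak (chr17:78359950-78360450) held 23.3, 25.5, 21.5 and 19.0 per Mb with IL-22 and 19.9, 17.0, 16.5 and 12.6 without. Its groups overlapped (change 0.43, 95% interval 0.16 to 0.71, adjusted p = 0.385), and the change was 0.19 after the GC correction. A site 4.93 kb downstream of the start (chr17:78354897-78355397) held 1.36 ± 0.673 per Mb with IL-22, 1.80 ± 0.495 without cytokine and 23.6 ± 3.58 with OSM. The mean there was 2.47 per Mb with IL-6, which also reaches STAT3. In the cytokine groups other than OSM and IL-22 it ran from 0.841 (TNF) to 3.31 per Mb (IL-17A).

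OSM and IL-22 libraries were compared directly, in a contrast that holds no unstimulated library. Over all peaks 6772 were called (1.66%), 2705 higher with IL-22 (0.664%) and 4067 lower (0.999%). The share called higher, 39.9% of the calls, moved with the scaling, to 17.4% of 8808 calls with the GC correction and 24.8% of 8032 with the composition factor taken over all peaks. Of the 48 SOCS3 peaks, 14 were lower with IL-22 than with OSM and none was higher. The widest difference was at the site 4.93 kb downstream, -3.75 ± 0.32 on the log2 scale (limma adjusted p = 1.46e-21). In the start-site peak the difference was -0.48 (adjusted p = 0.0388). Both cytokines were given at 10 ng/ml for 24 h.

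**Figure D3:**
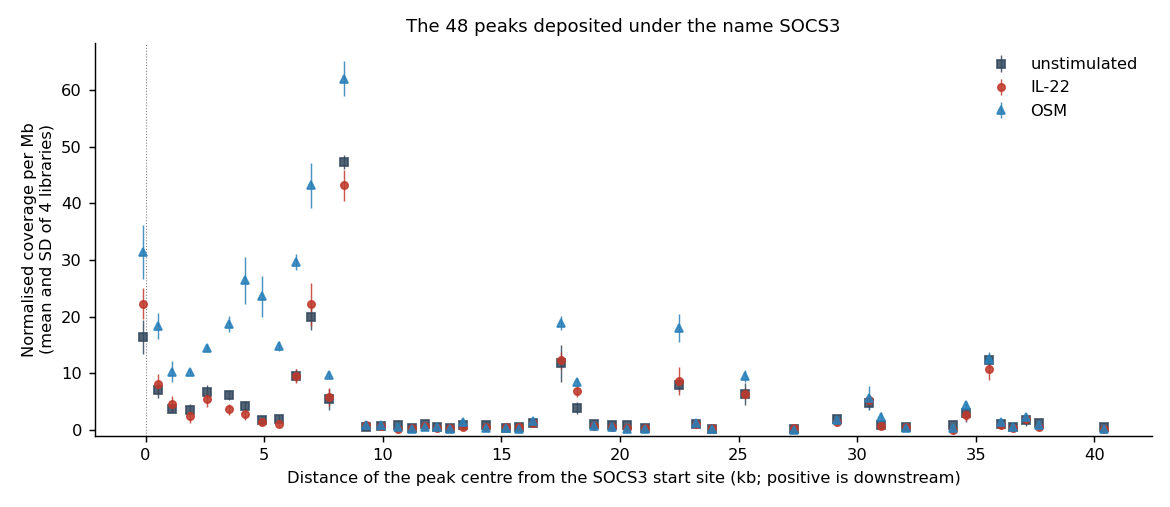
Normalised coverage (vertical axis, per Mb, mean and SD of 4 libraries) of the 48 peaks deposited under the name SOCS3 against the distance of the peak centre from the SOCS3 start site (kb, positive downstream). Squares are unstimulated, circles IL-22 and triangles OSM libraries. At 4.93 kb the OSM mean is 23.6 against 1.36 with IL-22. No peak is called between IL-22 and unstimulated libraries, but means differ at some. They are 3.65 with IL-22 and 6.23 without at 3.53 kb, and 6.95 and 3.97 at 18.18 kb.

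The genes through which IL-22 acts on epithelium, such as the antimicrobial proteins LCN2 and S100A8 and the acute-phase proteins SAA1 and SAA2, had little open chromatin here. Of 22 such genes 12 had a start-site peak, 8 of these with a mean under 1 per Mb. None was called by limma and none passed an unadjusted p under 0.05. Their changes ran from -0.36 at LBP to 0.55 at IL18, with a median 95% half-width of 0.78. LCN2 held 1.24 ± 0.625 per Mb with IL-22 and 1.33 ± 0.422 without (change -0.10, -0.85 to 0.66). Among the 8 lists of genes other than markers this half-width was the widest, against 0.28 in the list of STAT3 targets.

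**Figure D4:**
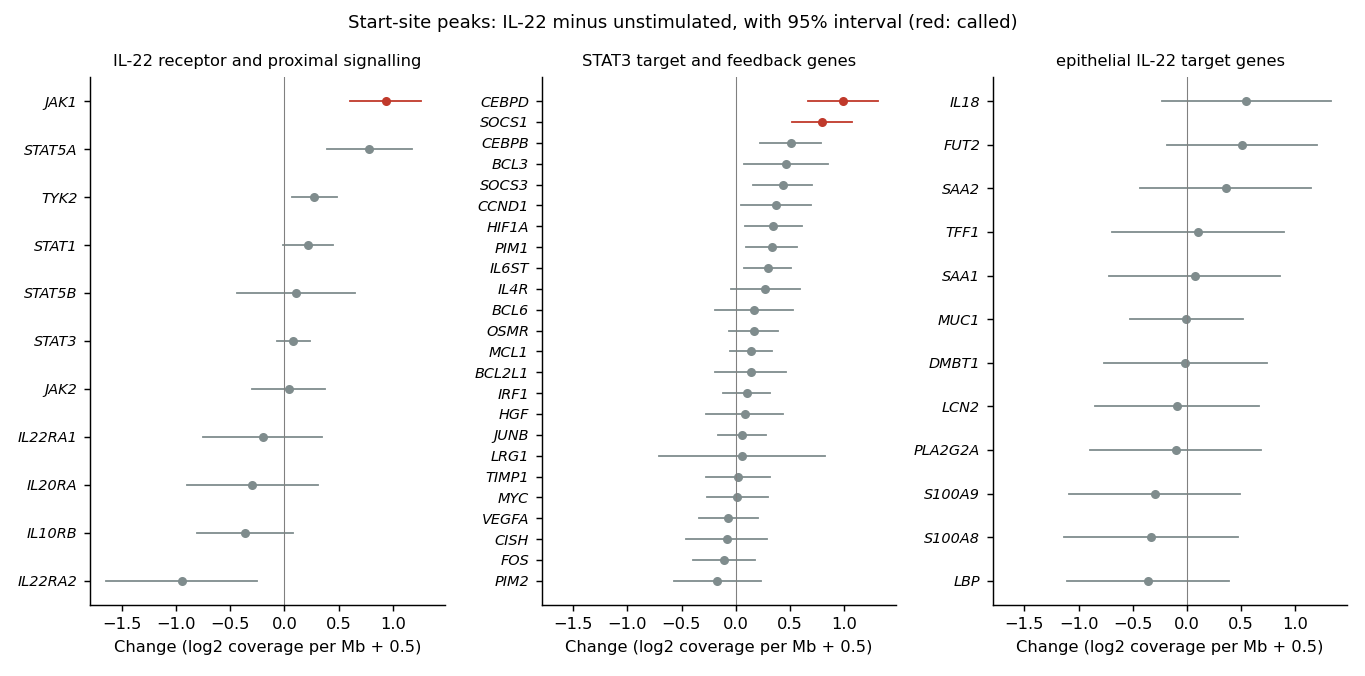
Change with IL-22 (horizontal axis, log2 of coverage per Mb plus 0.5) of the start-site peaks of 3 gene lists, with 95% intervals. Called peaks are red. JAK1 (0.93), CEBPD (0.99) and SOCS1 (0.80) are called, none of them after the GC correction, and the intervals of IL22RA1, IL10RB and STAT3 include 0.

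Programmes that other cytokines change in fibroblasts were also read at start sites, where 9.61% of all peaks passed an unadjusted p under 0.05. None of the 19 inflammatory fibroblast genes was called, and 2 passed an unadjusted p under 0.05, IL1R1, the receptor of IL-1, at 0.46 (95% interval 0.10 to 0.82) and THY1 at 0.38 (0.00 to 0.76). The chemokine gene CXCL5 changed by -0.31 (95% interval -0.77 to 0.15) and IL6 by -0.07 (-0.39 to 0.25). None of 14 contractile and matrix genes was called and 4 passed an unadjusted p under 0.05, FN1, which encodes fibronectin, at 0.39 (0.13 to 0.65, adjusted p = 0.443), CCN2 at 0.35 (0.08 to 0.62), MYLK at 0.34 (0.05 to 0.64) and ACTA2, the smooth muscle actin gene, at 0.32 (0.04 to 0.60). None of 12 interferon-stimulated genes was called and 1, IFI6, passed an unadjusted p under 0.05 (0.21, 0.01 to 0.41). Among 13 housekeeping start sites none was called and 2 passed it, HPRT1 at 0.80 (adjusted p = 0.234) and ACTB at 0.41 (adjusted p = 0.326). Both have GC-rich starts, at 73.4 and 72.4%.

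The peak with the widest rise was intergenic, 12468 bases upstream of TFCP2L1, a transcription factor of stem cells and kidney tubules (chr2:121297420-121297920). IL-22 libraries held 1.54, 2.58, 3.26 and 4.05 per Mb and unstimulated libraries 0.930, 1.07, 0 and 0. All IL-22 libraries were higher, as was required of the peaks named for the largest changes. The highest IL-22 library held the coverage of 19.8 reads of 75 bases and the highest unstimulated one that of 5.65. The change was 1.90 ± 0.35 (limma adjusted p = 0.00267), and 2.00 with an adjusted p of 0.00416 after the GC correction. It was not called without IL-22 replicate 4 or without unstimulated replicate 3 or 4.

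NFYB, a subunit of the CCAAT-binding factor NF-Y, had a raised peak in an untranslated exon 458 bases from a start site (chr12:104137309-104137809). Its values were 2.60, 3.76, 4.33 and 4.67 per Mb with IL-22 and 1.72, 0.453, 0.531 and 0.751 without. The groups did not overlap. The change was 1.73 ± 0.30 (limma adjusted p = 0.00119), and 1.55 with an adjusted p of 0.0397 after the GC correction. The gene's own start-site peak was more open and was not called, at 8.34 ± 1.63 per Mb with IL-22 and 8.03 ± 2.62 without (change 0.08, -0.30 to 0.46). The start-site peaks of the partner subunits NFYA and NFYC changed by 0.10 and -0.16 and were not called.

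An intronic site of DYM, deposited under the name MIR4744 (chr18:49249496-49249996), had 34.4% GC, the lowest among the named raised peaks. It held 5.56, 5.42, 5.95 and 5.65 per Mb with IL-22 and 1.71, 2.64, 1.13 and 2.30 without. The IL-22 libraries were tight and all higher. The change was 1.37 ± 0.25 (limma adjusted p = 0.00182), and 1.45 with an adjusted p of 0.00416 after the GC correction. UVSSA, which acts in transcription-coupled DNA repair, had a pair of raised peaks. That in its untranslated exon (chr4:1347395-1347895) held 22.1, 17.1, 22.0 and 19.5 per Mb against 14.3, 8.13, 10.0 and 11.9. The groups did not overlap, the change was 0.85 ± 0.15 (limma adjusted p = 0.000725), and 0.88 with an adjusted p of 0.00416 after the GC correction. The UVSSA promoter peak (chr4:1346789-1347289) was less stable, with a change of 0.52 ± 0.12 (limma adjusted p = 0.0425). After the GC correction it was 0.36 with an adjusted p of 0.582, and 10 of 26 alternative fits called it.

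The other 3 of the 7 peaks called after the GC correction were intergenic. The site near HAAO, an enzyme of tryptophan breakdown, held 17.9, 18.4, 19.2 and 25.1 per Mb against 10.7, 11.4, 11.8 and 11.1 (chr2:42809671-42810171, corrected change 0.82, adjusted p = 0.0387), and was lost without IL-22 replicate 4. The site near C16orf82 had 3.66 ± 0.602 against 1.25 ± 1.07 per Mb (corrected change 1.58, adjusted p = 0.0386), and that near MIR4499 36.0 ± 6.01 against 25.3 ± 3.83 (corrected change 0.62, adjusted p = 0.0397). Without the correction the MIR4499 site was lost when IL-22 replicate 3 or 4 or unstimulated replicate 1 or 4 was left out, and the C16orf82 site without IL-22 replicate 1, 2 or 3 or unstimulated replicate 1 or 3. With the correction and IL-22 replicate 3 or 4 left out, no peak was called by limma, and 5 and 6 were called without replicates 1 and 2.

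Most of the remaining named raised peaks were promoters of low coverage. Of the 16 named for the largest changes, RAB22A, an endosomal GTPase, had 8.51, 8.29, 8.67 and 9.17 per Mb against 3.46, 4.00, 3.85 and 2.52, in a peak centred 20 bases upstream of its start (change 1.23 ± 0.23, limma adjusted p = 0.00297, corrected change 0.82). CTF1 encodes cardiotrophin-1, a cytokine of the IL-6 family. Its coding exon held 6.07, 8.36, 6.62 and 8.74 per Mb against 4.44, 2.02, 1.70 and 4.96, a change of 1.17 ± 0.24 (limma adjusted p = 0.015, corrected change 0.75). The other 10 of these 16 lay at ZNF362, TYRO3 (a receptor tyrosine kinase), ADAMTS2 (a procollagen protease), LRP5L, FAM168B, SOWAHC, PTPRJ (a receptor phosphatase), CDC25B (a cell cycle phosphatase) and WWC2 and at a distal site of PLPP1, a lipid phosphatase gene, with changes from 1.14 to 1.65. In each the IL-22 libraries were all above the unstimulated ones, as the choice of the 16 required, and none of these 10 was called after the GC correction. Of the 16, NFYB, MIR4744 and RAB22A were called whichever of the 8 libraries was left out, and each of the other 13 was lost without at least 1 of them.

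**Figure D5:**
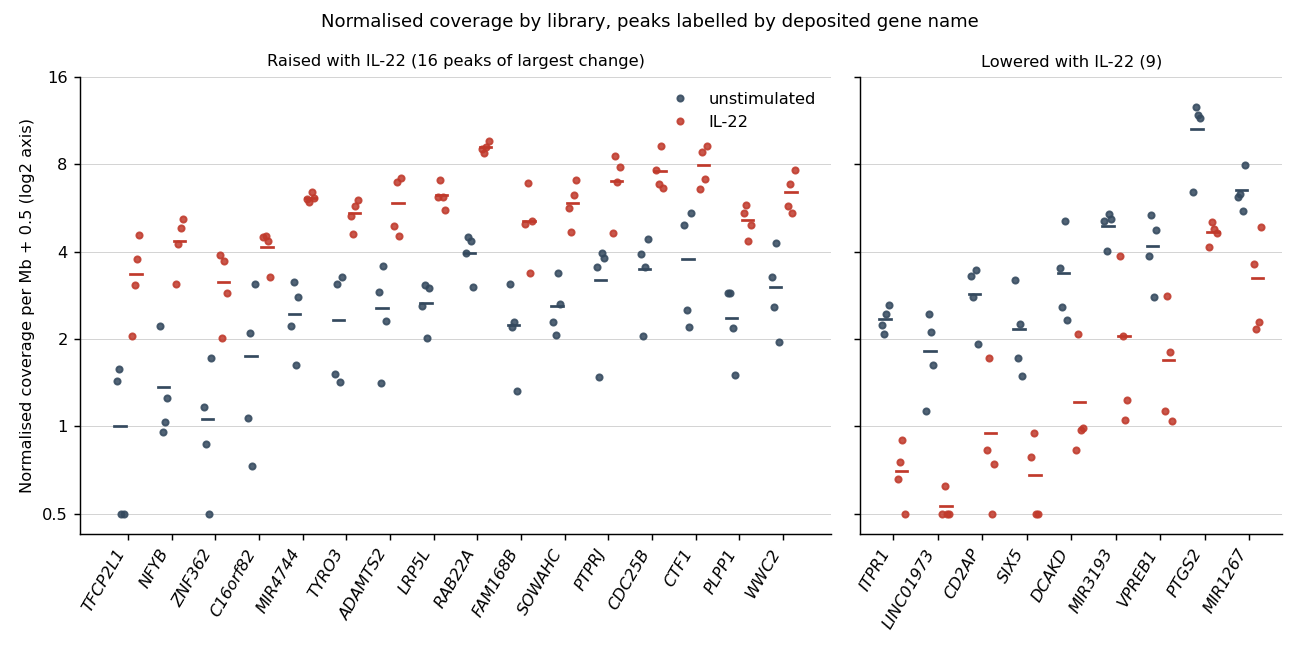
Normalised coverage per Mb plus 0.5 (vertical log2 axis) in the 4 unstimulated (dark) and 4 IL-22 (red) libraries for the 16 raised peaks of largest change and the 9 lowered peaks, labelled by the deposited gene name. Points are libraries and bars are means. No overlap was required for the 16 raised peaks and 6 of the lowered ones, and of the rest only VPREB1 overlaps. Several lowered peaks have IL-22 values at or near 0.

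Besides UVSSA, 4 genes carried 2 raised peaks each. SKIL encodes SnoN, a repressor of SMAD signalling, and its peak near the start (chr3:170357370-170357870) held 21.0, 22.7, 18.4 and 16.1 per Mb against 11.4, 8.30, 11.2 and 10.3 (change 0.89 ± 0.16, limma adjusted p = 0.00119). Its upstream peak, from which the sequence was shown, held 14.0, 11.9, 10.6 and 12.2 against 7.33, 5.81, 5.21 and 5.98 (0.95 ± 0.18, adjusted p = 0.00491). At MAP3K14, the kinase NIK of the noncanonical NF-κB pathway, the intronic peak rose from 10.6 ± 2.46 to 19.7 ± 1.43 per Mb and the promoter peak from 29.3 ± 2.12 to 41.9 ± 3.32. FASN, the fatty acid synthase, rose from 10.7 ± 1.15 to 19.8 ± 2.73 at the start and from 13.1 ± 2.65 to 21.6 ± 1.39 farther upstream. HSPA12A, a distant relative of heat shock proteins, rose from 8.42 ± 1.65 to 17.3 ± 0.624 and from 14.2 ± 1.17 to 22.8 ± 2.96 per Mb. Neighbouring peaks of a gene are not independent of each other, and none of these 8 was called after the GC correction.

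Called status without a GC correction was most stable in a smaller set. Of the 149 peaks, 21 were called in each of 19 alternative fits without a GC correction, a set picked after the fits were made and all of it raised. Of these, 3 were also called with the GC correction, the UVSSA exon, NFYB and the DYM intron. It held the peaks already described at CEBPD, SOCS1, the start of SKIL, the MAP3K14 intron, HSPA12A, RAB22A, the UVSSA exon, NFYB and the DYM intron. ZFYVE9, which encodes the SMAD anchor SARA, held 13.2 ± 2.03 per Mb with IL-22 and 5.84 ± 1.11 without (change 1.12 ± 0.19, limma adjusted p = 0.000677). CTCF, the insulator-binding protein, held 16.3 ± 1.56 against 7.84 ± 1.79 in an intron (1.03 ± 0.18, adjusted p = 0.000709).

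PIK3R1, the regulatory subunit of PI3 kinase, was also in that set, at 38.1 ± 0.484 per Mb against 25.3 ± 2.37 (0.59 ± 0.10, limma adjusted p = 0.00119), and INSIG1, which restrains SREBP processing, 20.8 ± 2.97 against 11.3 ± 0.413 (0.84 ± 0.15, adjusted p = 0.00207). A further 7 were start-site peaks of HES4, PTBP3, ARHGAP20, PDXK and YPEL1, a peak deposited as ZADH2 beside PTGR3, and 1 without a gene name beside CROCCP3, with changes from 0.86 to 0.98. After the GC correction the changes of PIK3R1, INSIG1, CTCF and ZFYVE9 were 0.37, 0.49, 0.71 and 0.85. None of these 4 and none of the further 7 was called after it.

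The 9 lowered peaks were 5 distal and 4 intronic, with a median GC content of 50.2% and a median change of -1.51. Their coverage was low, with medians of 0.716 per Mb with IL-22 and 2.88 without. The most covered was intergenic, 9101 bases downstream of the start of PTGS2, the inducible cyclooxygenase that makes prostaglandins (chr1:186671072-186671572). It held 3.65, 4.56, 4.29 and 4.14 per Mb with IL-22 and 5.91, 12.1, 11.3 and 11.1 without. The groups did not overlap, as was required of the lowered peaks named for the largest changes, and replicate 1 was the low unstimulated library. The log2 change was -1.14 ± 0.22 (limma adjusted p = 0.00324), and the site was not called without unstimulated replicate 2 or after the GC correction. Its mean in the other cytokine groups ranged from 1.10 per Mb with IL-13 to 35.1 with IL-1β.

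The site 5458 bases from ID1, a target of BMP signalling (deposited as MIR3193, chr20:31610497-31610997), held 3.37, 1.55, 0.548 and 0.730 per Mb with IL-22 and 4.60, 3.51, 4.88 and 4.70 without. All IL-22 libraries were lower, as again required, with a change of -1.45 ± 0.29 (limma adjusted p = 0.00694). An intron of NALF1 deposited as MIR1267 fell from 6.01 ± 1.04 to 2.73 ± 1.28 per Mb. The site near CD2AP fell from 2.36 ± 0.687 to 0.447 ± 0.531, an intron of ITPR1, the IP3 receptor, from 1.84 ± 0.233 to 0.202 ± 0.166, and an intron of NMT1 deposited as DCAKD from 2.88 ± 1.27 to 0.716 ± 0.580. The peaks deposited as SIX5, LINC01973 and VPREB1 fell from 1.67 ± 0.757, 1.32 ± 0.570 and 3.69 ± 1.11 to 0.182 ± 0.220, 0.0308 ± 0.0616 and 1.20 ± 0.819. In the ITPR1 and LINC01973 peaks no IL-22 library held more than the coverage of 1.97 and 0.947 reads. After the GC correction the 9 changes ran in the same direction and none was called, with adjusted p from 0.0852 to 0.216. Each of the 9 was lost when some single library was left out, the ID1 site without IL-22 replicate 3 or 4 and the ITPR1 site without any of the 8.

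Motif letters were counted as a description. The GC box GGGCGG of SP and KLF factors was in 125 of the 140 raised peaks (89.3%), against 16.0% of all tested peaks. In start-site peaks of at least 70% GC the shares were 97.3% of 113 raised peaks and 96.4% of all 8120. The NF-Y box CCAAT was in 31.9% of those 113 and in 23.6% of the 8120, and over all GC contents in 35.7% of raised peaks and 49.8% of tested ones. The STAT palindrome was in 1 of 140 raised peaks (0.714%, against 2.29% of all tested) and in 2 of 9 lowered ones. In the GC-rich start-site peaks it was in 0.885% of the 113 and 0.924% of the 8120. AP-1 motifs were in 15 raised peaks (10.7%) and 6 lowered ones, against 25.7% of all tested. In the GC-rich start-site peaks they were in 4.42% of the 113 and 3.47% of the 8120. As printed earlier, the ID1 site held both an AP-1 match and a STAT match in its central 240 bases.

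The level of the called peaks in the other groups of the series placed the unstimulated libraries at one end. In 134 of the 140 raised peaks the unstimulated mean was the lowest of 11 group means, and in 74 the IL-22 mean was the highest. At JAK1 the group means were 10.1 per Mb unstimulated, 20.1 with IL-22, and 13.0 to 18.9 in the other 9 groups. At CEBPD they were 9.20, 18.7 and 11.9 to 19.4, at SOCS1 13.4, 23.5 and 11.4 to 28.5, and at NFYB 0.863, 3.84 and 1.82 to 3.03. Tested against the same unstimulated libraries, 114 of the 140 raised peaks were also called with OSM, 49 with IL-6 and 30 with IL-17A. JAK1, SOCS1 and CEBPD were among those called with OSM. The unstimulated libraries that enter these fold changes chose the peaks, which favours such calls. The order of the groups and these counts are therefore a description.

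Direct contrasts between IL-22 and other cytokines leave the unstimulated libraries out of the difference. Against OSM none of the 140 raised peaks was called, against a background of 0.664% called higher with IL-22. Against IL-6, 88 peaks were called in all (0.0216%), 73 higher with IL-22 (0.0179%) and 15 lower (0.00368%), and none of the 140 was among them. The share called higher was 83.0% of these calls, 63.2% of 76 with cyclic loess, 42.9% of 7 with quality weights, and 0% both of the 5 calls with voom weights and of the 3 without IL-6 replicate 4. The count moved with single libraries of either group. It was 3 with IL-6 replicate 4 left out and 323, 399 and 519 with IL-6 replicate 3, 1 or 2 left out, and 18 to 49 with an IL-22 library left out. Against IL-17A, 498 peaks were called (0.122%), 222 higher (0.0545%) and 276 lower (0.0678%), again with none of the 140. The share called higher was 44.6% of these calls, 30.4% with cyclic loess, 54.1% with the composition factor taken over all peaks and 68.2% with the GC correction, so the balance of directions depended on the scaling. That count was 236 without IL-17A replicate 2 and 263, 264, 292 and 378 without IL-22 replicate 3, 1, 4 or 2. It was 293, 343 and 419 without IL-17A replicate 4, 3 or 1. Against the mean of the other 9 cytokine groups, 1281 peaks were called (0.315%), 532 higher (0.131%) and 749 lower (0.184%), among them 1 of the 140. The raised peaks were chosen for high values in the same 4 IL-22 libraries, which favours the IL-22 side in each of these contrasts, and nothing is read from the side on which they lay.

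The lowered peaks are given in the same way, as a description, since the 4 IL-22 libraries that chose them enter each contrast and favour a lower value. The IL-22 mean was the lowest of the 11 groups in 8 of the 9 (all but PTGS2), and 6 of the 9 were called lower than the mean of the other 9 cytokine groups, against a background of 0.184%. The differences from that mean were -1.41 at the CD2AP site, -1.13 at the ID1 site, -0.89 in the NALF1 intron and -0.69 at the PTGS2 site. Against OSM, IL-6 and IL-17A alone, 3, 1 and 4 of the 9 were called lower.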

How the data were processed

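ATAC-seq of Ccd18-Co cultures gave 44 libraries (11 groups of 4). The authors aligned paired-end reads to hg38 and called peaks with MACS2, as named in the submitters' processing notes and the study's methods. The values the authors deposited are a coverage signal, the sum of the per-base read depths in each peak (407383 peaks, 500 bases wide), unscaled, with a gene name and class per peak. These values are not read counts, so no count model was used, and the depth per peak follows from the summed coverage per library given in the report. The software that summed the coverage is not given in the sources used here.

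Coverage was divided by the library total in Mb and by a trimmed mean composition factor (30% of log ratios and 5% of means trimmed at each end, on 148332 peaks covered in every library). Peaks with a log2 mean of at most -3 were left out (207), leaving 407176. limma 3.58.1 in R 4.3.3 was fitted to log2(coverage per Mb + 0.5) over all 44 libraries with group as the only term and a mean-variance trend. Called means a Benjamini-Hochberg adjusted p under 0.05 over all tested peaks. Fold changes on this scale understate the change of low peaks. The scripts were checked on simulated coverage with known changes.

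The members and gene lists were chosen with earlier results of these data known. Named were the 16 raised peaks and the lowered peaks of largest change with a mean of at least 1 per Mb over the 8 libraries and no overlap between groups (6), called peaks of list genes, start-site peaks of list genes at an unadjusted p under 0.05, genes with 2 called peaks, and the receptor, STAT3, SOCS3 and BCL3 anchors. The other 3 lowered peaks, the 7 peaks called after the GC correction and other list members given as examples were named after their values were seen. 1 of the called peaks is not reported here by name. Start sites came from GENCODE v44 and GC content and sequences from the hg38 reference, and all 407383 peaks lie inside its chromosomes. Peak coordinates are as deposited, and the sequence windows are 1-based. Wilson intervals cover counting error only. Library measures were compared by exact permutation of the 8 libraries. Tests used Python 3.11.15 with scipy 1.17.1. In all, 26 alternatives to the IL-22 fit were run, 21 of them planned and 5 added after seeing the data.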

Additional observations from a re-analysis of the deposited data

Results flagged for a closer look

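Within groups of 4 libraries, 1 library stood far from the other three (Dixon's gap test at the 95% level) in 6 of 84 checks of the named called peaks and the library measures. Chance alone marks about 1 group in 20. In the unstimulated group these were replicate 1 at the upstream FASN peak (17.0 per Mb, the highest), replicate 1 at the PTGS2 site (5.91 per Mb, the lowest) and replicate 2 at the PTPRJ promoter (0.984 per Mb, the lowest). In the IL-22 group they were replicate 1 at the UVSSA promoter peak (27.8 per Mb, the lowest), replicate 2 at the NMT1 intron deposited as DCAKD (1.58 per Mb, the highest) and replicate 4 at the C16orf82 site (2.77 per Mb, the lowest). The causes were not tested.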

How the results depend on the processing

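All 149 called peaks kept their direction in every one of the 26 alternatives that tested them. The same libraries chose the peaks, which favours this outcome. In 19 of the alternatives without a GC correction 21 of the 149 were called throughout, and 3 of those (UVSSA, NFYB and MIR4744) with the GC correction too. The GC correction called 7 peaks (7 raised, 0 lowered, promoter share 0%, list start sites 0), with or without the replicate block. Cyclic loess called 98 (90 raised), a pseudocount of 0.1 89 (77 raised), voom weights 90 (84 raised), quality weights per library 259 (242 raised, 17 lowered) and a fit of only the 2 groups 411 (394 raised, 17 lowered). A pseudocount of 2 left 3 lowered peaks. With start sites within 1 kb in place of the deposited class, the promoter share of raised peaks was 89.3%. Against OSM, only the 2 groups, quality weights and voom called 12806, 12732 and 12096 peaks. Against IL-6, a pseudocount of 2 called 20, a mean of at least 1 per Mb 41, only the 2 groups 41, quality weights 7 and voom 5. The cause of these shifts was not tested.

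Leaving out 1 library at a time, 53 to 109 peaks were called (49 to 104 raised, 3 to 9 lowered), the fewest without IL-22 replicate 4, 65 without replicate 3, 74 without replicate 2, 91 without replicate 1 and 85 and 95 without unstimulated replicates 2 and 3. The promoter share was 51.0 to 59.2%, and 2 to 3 list start sites were called. With the GC correction only the 4 IL-22 libraries were left out in turn, and 0 to 6 peaks were called (0 to 5 raised, 0 to 1 lowered), with 0 list start sites and, in the 2 fits with raised peaks, a promoter share of 0%. Against OSM 4591 to 5869 peaks were called, against IL-6 3 to 519 and against IL-17A 236 to 419. Differences between groups in the library measures ranged from 1.13 to 1.22 percentage points for GC-rich coverage, 0.738 to 1.03 for promoter coverage, 0.358 to 0.644 for the most covered peaks, 2.5 to 5.82 for uncovered peaks and -42.3 to 45.0 Mb for the total.

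Deviations of same-numbered IL-22 and unstimulated libraries correlated at -0.00435 to 0.0138, and those of differently numbered ones at -0.0238 to 0.0122. These values run over all tested peaks, with low median coverage (0.699 per Mb with IL-22, 0.831 without). They cannot decide whether the numbers paired the samples. With the number as a replicate block 175 peaks were called. The low coverage of epithelial genes limits what can be seen there.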
